A study of Mus musculus with 12 samples.

Results

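TFIIH is the general transcription factor that opens DNA at promoters and, in nucleotide excision repair, around a damaged base. The genes described here encode most of its subunits and the nuclease that cuts beside it. They were measured in thymocytes of H-2b AND-TCR–transgenic and C57BL/6 mice. The members were 10 genes, Gtf2h1, Gtf2h2, Gtf2h3, Gtf2h4, Ercc2, Ercc3, Ercc5, Cdk7, Mnat1 and Ccnh, and a probe set belonged to them when its only annotated symbol was 1 of these. This gave 18 of the 36899 probe sets of 3 Affymetrix array types, U74Av2, U74Bv2 and U74Cv2, for 9 of the 10 genes. No probe set carried Gtf2h2 as its only symbol. AND-TCR–transgenic mice bear a rearranged T cell receptor that is restricted by MHC class II and directs thymocytes to the CD4 lineage on the H-2b background. C57BL/6 mice, which carry no such transgene, were the wild type. Both groups were adult, untreated as far as the labels say, and given as total thymocytes with no sorting, and each was hybridized 2 times to each array type, 12 arrays in all. The promoter of the transgene and the number and sex of the mice were not stated in the labels or methods.

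The core of TFIIH holds the helicases Ercc3 (XPB), whose ATPase pries promoter DNA open, and Ercc2 (XPD), which unwinds DNA around a lesion. Gtf2h1 (p62), Gtf2h2 (p44), Gtf2h3 (p34) and Gtf2h4 (p52) are further parts of the ring, in which Gtf2h4 anchors Ercc3 and Gtf2h2 anchors Ercc2. Another TFIIH subunit, not among the members, had no probe set with its symbol alone. Cdk7, Ccnh (cyclin H) and Mnat1 (MAT1) form the CDK-activating kinase, which phosphorylates the tail of RNA polymerase II and the activation loop of cell cycle kinases. In repair, Xpc finds the lesion, TFIIH opens it, and Ercc5 (XPG) cuts on the 3′ side of the lesion while Ercc1 and Ercc4 (XPF) cut on the 5′ side. Inherited defects of TFIIH subunits cause xeroderma pigmentosum and trichothiodystrophy in humans.

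Of the 8 members that could be tested, Gtf2h4 was the one that passed the test between the groups, so its promoter window is shown, with that of Ercc2, another core subunit, for comparison. The windows are from RefSeq (GRCm38.p6), from 250 bases before to 50 after an annotated start, 5′ to 3′ on the strand of the gene. That of Gtf2h4 lies at chr17:35673694-35673993 on the minus strand and that of Ercc2 at chr7:19381767-19382066 on the plus strand. Capitals mark ACTACAA on either strand in Gtf2h4 and CCAAT on either strand in Ercc2.
Gtf2h4: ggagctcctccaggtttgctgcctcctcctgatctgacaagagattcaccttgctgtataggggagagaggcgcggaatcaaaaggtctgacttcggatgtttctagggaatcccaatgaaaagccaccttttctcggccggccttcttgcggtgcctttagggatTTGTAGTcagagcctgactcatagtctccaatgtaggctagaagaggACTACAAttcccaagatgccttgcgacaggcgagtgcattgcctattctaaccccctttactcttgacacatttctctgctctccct
Ercc2: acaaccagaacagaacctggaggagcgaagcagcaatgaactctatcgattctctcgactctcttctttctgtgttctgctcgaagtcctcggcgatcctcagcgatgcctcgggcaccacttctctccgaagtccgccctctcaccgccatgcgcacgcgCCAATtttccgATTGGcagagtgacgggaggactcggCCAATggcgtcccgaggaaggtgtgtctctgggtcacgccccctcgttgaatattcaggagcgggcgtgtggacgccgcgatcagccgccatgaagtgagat

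The letters ACTACAA stood 2 times in the Gtf2h4 window, on opposite strands, beginning 84 and 37 bases before the start. They are a part of the long motif of the zinc finger factor Zfp143, and the rest of that motif was not searched. Of all 32851 windows, 3.24% held them at least once and 0.177% at least 2 times, and of the 8 members with a window Gtf2h4 alone held them. CCAAT, the box bound by NF-Y, stood in the windows of Gtf2h4, Ercc2 and Ercc5 and in 37.4% of all windows. CCGGAAG, an ETS site, stood in those of Gtf2h2 and Cdk7 (8.86% of all windows), and CACGTG, an E box, in those of Gtf2h1 and Cdk7 (7.15%). None of the 8 held TATAAA, which 13.6% of all windows did. The letters were chosen after the windows had been read, they do not overlap each other in the Gtf2h4 window, and a match describes the sequence and is no measure of binding. Ercc3 and Ccnh had no window in the table.

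Intensities were deposited on a linear scale and could fall below 0. A detection limit of 420.8 for U74Av2, 869.4 for U74Bv2 and 1578.7 for U74Cv2 was set from the negative values, and values under it were raised to it before the log2 transform. A probe set entered limma if either group had both of its arrays above the limit; this was so for 12844 probe sets and for 11 of the 18 members, from 8 genes. On a single array, 23.2% to 48.9% of the probe sets lay above the limit. All arrays of AND-TCR–transgenic thymocytes were washed on fluidics module 4 and all of C57BL/6 thymocytes on module 2, so module and group cannot be told apart. The first hybridizations of both groups were run on 1 day and the second on another, and the U74Av2 arrays of these days came from different lots. A rescan was noted for 1 array, the first C57BL/6 hybridization to U74Av2, which read 10525 for Gtf2h4 beside 11425 on the second. Xist, expressed from the inactive X chromosome, read -53 and -99 in AND-TCR–transgenic and 2878 and 3001 in C57BL/6 thymocytes on U74Av2, while the Y-linked Eif2s3y read 1649 and 1529 in AND-TCR–transgenic and -110 and 13 in C57BL/6 thymocytes, so sex and group cannot be told apart. The methods call the 2 runs independent experiments without saying whether separate mice were used, so the p-values are set against the spread of the hybridizations alone, and that spread may be technical.

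Gtf2h4, the p52 subunit, of AND-TCR–transgenic thymocytes was 3.62-fold lower than that of C57BL/6 thymocytes. This difference in RNA signal rests on 1 probe set, 102039_at on U74Av2, and no other probe set of the gene was there to compare. Where it lies on the transcript was not looked up. It read 3161 and 2897 in the 2 hybridizations of AND-TCR–transgenic thymocytes, against 10525 and 11425 in those of C57BL/6 thymocytes. All 4 values lay far above the limit, the groups did not overlap, and the gap between them was many times the gap within either. The means were 3029 ± 187 in AND-TCR–transgenic and 10975 ± 636 in C57BL/6 thymocytes (SD, n = 2 each). The log2 fold change was -1.86 (standard error, SE, 0.15, 95% interval -2.21 to -1.51, adjusted p = 0.00769 in limma over all tested probe sets). Taken by run day, it was -1.74 for the first and -1.98 for the second hybridizations. With the replicate block the adjusted p in limma was 1.23e-05. The call did not hold when any 1 of the 4 hybridizations was left out, where limma called no probe set at all (1290 to 1968 had an unadjusted p under 0.05): the log2 fold change of Gtf2h4 was then between -1.92 and -1.79, the unadjusted p between 0.000911 and 0.00276 and the adjusted p between 0.189 and 0.391. It also missed the threshold without a trend in the prior variance (adjusted p = 0.0745 in limma).

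**Figure D1:**
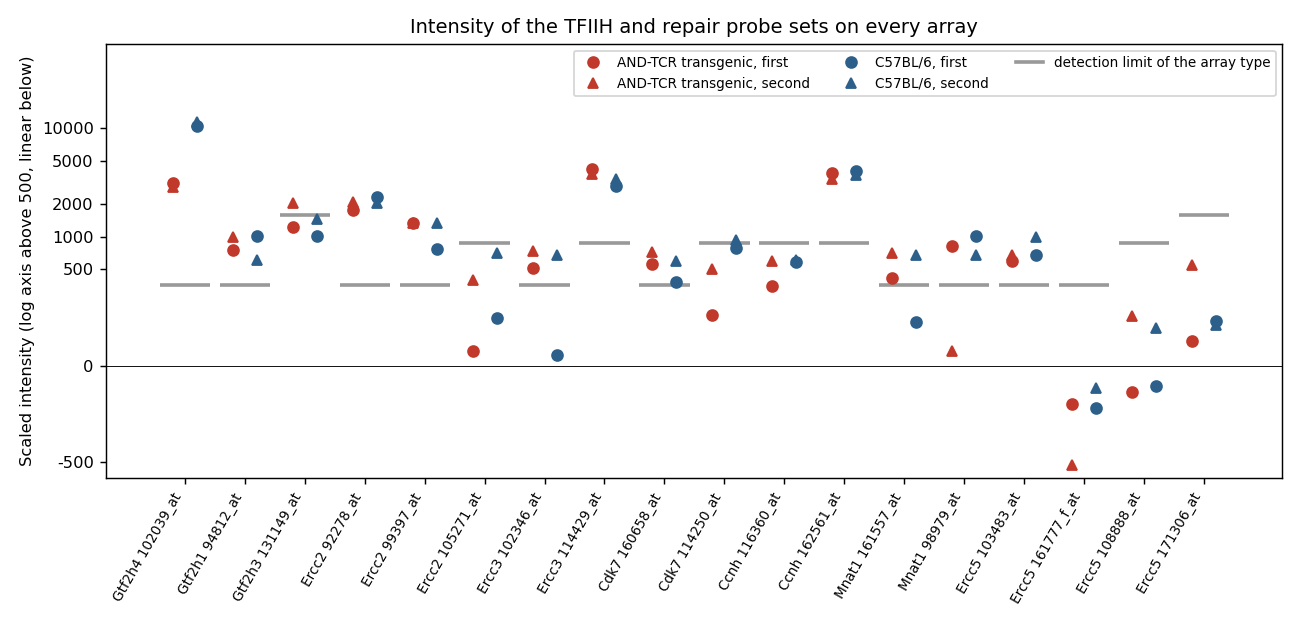
Scaled intensity (y axis, logarithmic above 500 and linear below) of the 18 member probe sets (x axis) on every array, with AND-TCR–transgenic arrays left and C57BL/6 arrays right at each probe set, circles for the first and triangles for the second hybridizations, and grey bars at the detection limit of the array type. Gtf2h4 at 3161 and 2897 against 10525 and 11425 is set apart. At the other probe sets the groups overlap or lie closer to each other than at Gtf2h4.

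Among all 12844 tested probe sets, 0.568% were lower and 0.483% were higher at an adjusted p under 0.05, together 1.05%. Among the 11 tested member probe sets, 1 was lower, none was higher and 10 did not pass. At an unadjusted p under 0.05, where 14% of all tested probe sets lay, the members again gave 1, Gtf2h4. The groups did not overlap at 2 of the 11, Gtf2h4 and 1 probe set of Ercc3, against 44.4% of all tested probe sets. Gtf2h4 had the 32nd most negative log2 fold change of all. The median over the 11 was 0.10, against 0.02 over all tested probe sets, and the 10 that did not pass ran from -0.49 to 0.38, with 4 below 0 and 6 above it. The lowest bound of their 95% intervals was -1.46, for Mnat1 at 98979_at, and the highest 1.25, for Ercc2 at 99397_at. A missed threshold does not show that these genes were equal. The values of probe sets with an array under the limit depended on the floor: at a floor of 1 noise SD the log2 fold change was -0.99 (SE 0.69) for Mnat1 at 98979_at, 0.54 (SE 0.61) for Mnat1 at 161557_at and 0.70 (SE 0.63) for Ercc3 at 102346_at, against -0.49, 0.10 and 0.20 at the detection limit, and none passed.

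**Figure D2:**
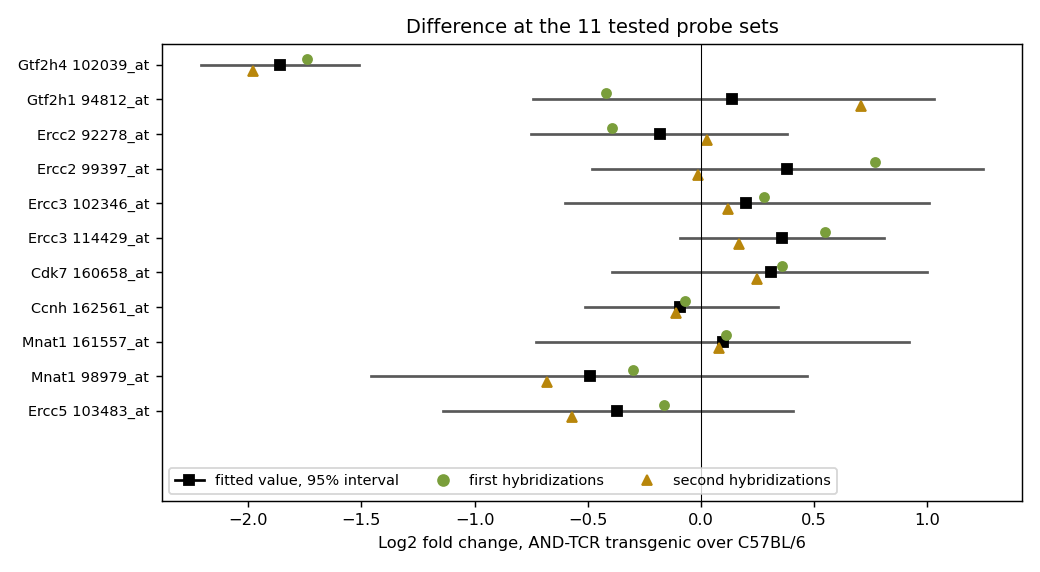
Log2 ratio of AND-TCR–transgenic to C57BL/6 thymocytes (x axis) for the 11 tested member probe sets (y axis). Squares with bars are the fitted values with their 95% intervals (n = 2 hybridizations per group), circles and triangles the first and second hybridizations taken alone; Gtf2h4 at -1.86 has the most negative value, and the intervals of the other 10 all include 0.

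Of the other core subunits, the helicase Ercc3 was above the limit on every array at 1 of its 2 probe sets. It gave 4257 and 3799 in AND-TCR–transgenic and 2911 and 3377 in C57BL/6 thymocytes at probe set 114429_at on U74Bv2. The groups did not overlap here, and the log2 fold change of 0.36 did not pass (SE 0.18, 95% interval -0.09 to 0.81, adjusted p = 0.46 in limma). Its other probe set, 102346_at on U74Av2, read 512 and 741 in AND-TCR–transgenic and 59 and 680 in C57BL/6 thymocytes, with 1 C57BL/6 array under the limit. The groups overlapped, and the log2 fold change of 0.20 (SE 0.34, adjusted p = 0.851 in limma) rests on that array being raised to the limit. The helicase Ercc2 read 1772 and 2073 in AND-TCR–transgenic and 2319 and 2037 in C57BL/6 thymocytes at 92278_at on U74Av2, where the groups overlapped. At 99397_at on U74Av2 it read 1329 and 1337 in AND-TCR–transgenic and 777 and 1343 in C57BL/6 thymocytes, so that the first C57BL/6 array alone stood lower. The log2 fold changes at these probe sets were of opposite sign, -0.18 (95% interval -0.75 to 0.38) and 0.38 (95% interval -0.48 to 1.25), and neither passed (adjusted p = 0.801 and 0.709 in limma). The remaining Ercc2 probe set, 105271_at on U74Bv2, read between 75 and 714 and was under the limit on every array.

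Gtf2h1, the p62 subunit that docks repair and transcription factors, read 754 and 990 in AND-TCR–transgenic and 1012 and 606 in C57BL/6 thymocytes. The log2 fold change had opposite signs on the 2 days, -0.42 and 0.71, and the fitted log2 fold change was 0.14 (95% interval -0.74 to 1.03, adjusted p = 0.911 in limma). Gtf2h3, the p34 subunit, read 1237 and 2053 in AND-TCR–transgenic and 1013 and 1459 in C57BL/6 thymocytes on U74Cv2. A single array, the second of AND-TCR–transgenic thymocytes, lay above the limit of that array type, so Gtf2h3 was not tested. Within the core, the intervals of all tested probe sets other than that of Gtf2h4 included 0.

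Of the CDK-activating kinase, cyclin H gave the narrowest interval. Ccnh read 3886 and 3427 in AND-TCR–transgenic and 4086 and 3687 in C57BL/6 thymocytes at 162561_at on U74Bv2. The groups overlapped, and the log2 fold change of -0.09 did not pass (SE 0.17, 95% interval -0.51 to 0.34, adjusted p = 0.875 in limma). Its other probe set, 116360_at on U74Bv2, read between 412 and 617, under the limit on every array. Cdk7, the catalytic subunit, read 562 and 717 in AND-TCR–transgenic and 437 and 604 in C57BL/6 thymocytes at 160658_at on U74Av2, not far above the limit. The log2 fold change was 0.31 (SE 0.30, adjusted p = 0.711 in limma). At 114250_at on U74Bv2, Cdk7 read 264 and 500 in AND-TCR–transgenic and 793 and 929 in C57BL/6 thymocytes. There the second C57BL/6 array alone exceeded the limit, so that this probe set, whose readings ran the other way, was not tested. Mnat1, which holds the kinase to the core, read 455 and 716 in AND-TCR–transgenic and 227 and 675 in C57BL/6 thymocytes at 161557_at on U74Av2 (log2 fold change 0.10, adjusted p = 0.934 in limma). At 98979_at on U74Av2 it read 818 and 77 in AND-TCR–transgenic and 1008 and 675 in C57BL/6 thymocytes (log2 fold change -0.49, adjusted p = 0.661 in limma). Each Mnat1 probe set had 1 array under the limit, and their fitted values differed in sign.

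Ercc5, the 3′ nuclease, had 4 probe sets, of which 103483_at on U74Av2 was tested. It read 603 and 678 in AND-TCR–transgenic and 675 and 1007 in C57BL/6 thymocytes, and the highest value, on the second C57BL/6 array, set most of the difference. The log2 fold change was -0.37 (SE 0.33, 95% interval -1.14 to 0.41, adjusted p = 0.689 in limma). The others, 161777_f_at, 108888_at and 171306_at, were under the limit on all arrays, with readings between -528 and 548. The single tested partner on the 5′ side, Ercc4, read 4438 and 4590 in AND-TCR–transgenic and 6279 and 5158 in C57BL/6 thymocytes. The groups did not overlap, as at 44.4% of all tested probe sets, and the log2 fold change was -0.33 (SE 0.15, adjusted p = 0.422 in limma).

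The rest of the repair pathway was read from lists, each gene at its tested probe set with the highest mean. Of 41 repair genes outside the members, 37 had a probe set and 29 were tested. None of the 29 passed in limma in either direction, where 0.65% of all 7843 tested genes were higher and 0.612% were lower. At an unadjusted p under 0.05 none of the 29 was higher and 1 was lower, where 7.91% of all tested genes were higher and 6.62% were lower. The 10 tested genes of damage recognition had a median log2 fold change of 0.03, the same as the 0.03 over all tested genes. Ddb1, the adaptor that brings a ubiquitin ligase to damaged DNA, read 8612 and 8535 in AND-TCR–transgenic and 8462 and 8013 in C57BL/6 thymocytes. Xpc, the sensor that calls TFIIH to a lesion, read 1097 and 921 in AND-TCR–transgenic and 633 and 701 in C57BL/6 thymocytes, groups that did not overlap (log2 fold change 0.59, SE 0.31, adjusted p = 0.46 in limma). Rpa3, a subunit of the protein that coats single-stranded DNA, ran the other way. It read 1546 and 1620 in AND-TCR–transgenic and 3157 and 1940 in C57BL/6 thymocytes, again without overlap (log2 fold change -0.65, SE 0.30, adjusted p = 0.4 in limma). A lack of overlap was seen at 44.4% of all tested probe sets. The log2 fold changes of Cul4b, Rpa1 and Ddb2, also of this list, were 0.10, -0.25 and -0.07 (adjusted p = 0.809, 0.738 and 0.941 in limma).

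The 5 tested genes of transcription-coupled repair had a median log2 fold change of 0.01. Usp7 is a deubiquitinase that protects the repair factor Ercc6. With each gene at its most intense probe set, it was the 1 repair gene outside the members at an unadjusted p under 0.05. It read 4598 and 4661 in AND-TCR–transgenic and 7302 and 5894 in C57BL/6 thymocytes (log2 fold change -0.50, SE 0.17, unadjusted p = 0.0183, adjusted p = 0.243 in limma). The groups did not overlap, but the adjusted p missed the threshold. The nucleosome-binding protein Hmgn1 and the elongation factor Tcea1 had log2 fold changes of -0.10 and 0.01. Repair synthesis and ligation, which share their proteins with DNA replication, had 13 tested genes with a median of -0.23. The clamp Pcna read 10124 and 8876 in AND-TCR–transgenic and 10216 and 8895 in C57BL/6 thymocytes, nearly the same on each day. The clamp loader subunits Rfc5 and Rfc4 had the most negative log2 fold changes of this list, -0.74 (SE 0.34, adjusted p = 0.398 in limma) and -0.72 (SE 0.33, adjusted p = 0.396). The 20 tested subunits of RNA polymerase II and of the other general transcription factors, which meet TFIIH at promoters, had a median of -0.03 and none passed. Polr2e, a shared polymerase subunit, read 22331 and 18426 in AND-TCR–transgenic and 17235 and 17619 in C57BL/6 thymocytes at a probe set of a type that can read related genes (log2 fold change 0.22, adjusted p = 0.649 in limma).

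**Figure D3:**
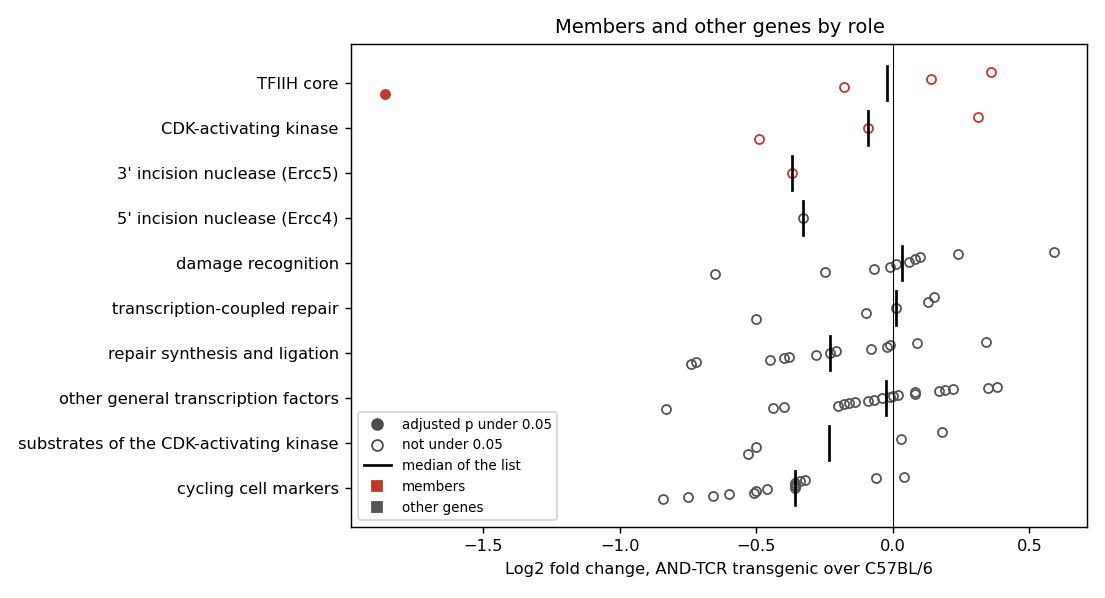
Log2 ratio of AND-TCR–transgenic to C57BL/6 thymocytes (x axis) for each tested gene, grouped by role (y axis), with members in red, other genes in grey, filled circles at an adjusted p under 0.05 and a bar at the median. Gtf2h4 is the single filled circle; the medians by role run from -0.37 to 0.03.

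Cdk1, Cdk2, Cdk4 and Cdk6 are kinases that the CDK-activating kinase phosphorylates, and none passed. Cdk1, the mitotic kinase, read 3745 and 2984 in AND-TCR–transgenic and 4728 and 4927 in C57BL/6 thymocytes (log2 fold change -0.53, SE 0.18, adjusted p = 0.261 in limma). Cdk6 read 5424 and 4593 in AND-TCR–transgenic and 6470 and 7672 in C57BL/6 thymocytes (log2 fold change -0.50, SE 0.16, adjusted p = 0.253 in limma). Both were lower without overlap, which held in either direction for 44.4% of all tested probe sets. Cdk2 and Cdk4 had log2 fold changes of 0.03 and 0.18. Of 15 tested markers of cycling cells none passed in limma, and an unadjusted p under 0.05 was reached by 7 that were lower (6.62% of all tested genes) and by none that was higher (7.91% of all tested genes), with a median log2 fold change of -0.36.

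Some markers of thymocyte stages moved with Gtf2h4. Of 11 tested thymocyte markers, 4 were lower (0.612% of all tested genes), none was higher (0.65% of all tested genes) and 7 did not pass. Those that were lower were the recombinase subunits Rag1 and Rag2 and the coreceptor chains Cd8a and Cd8b1, all expressed at the double-positive stage. Rag1 read 6545 and 6313 in AND-TCR–transgenic and 33115 and 28353 in C57BL/6 thymocytes (log2 fold change -2.25, adjusted p = 0.00222 in limma), and Cd8a and Cd8b1 had log2 fold changes of -0.87 and -1.27 (adjusted p = 0.0363 and 0.0111 in limma). Rag2 read 507 and 311 in AND-TCR–transgenic, the second under the limit, and 4550 and 4169 in C57BL/6 thymocytes (adjusted p = 0.00901 in limma). Of the stage markers that did not pass, Cd4 had a log2 fold change of -0.56 (adjusted p = 0.194 in limma), Ptcra of -0.17 and Cd5 of 0.44 (adjusted p = 0.847 and 0.255 in limma). The CD3 chains, which mark T lineage cells at large, did not pass, with log2 fold changes of 0.06 for Cd3e, 0.15 for Cd3g and 0.40 for Cd3d, and Cd3d ran the other way at its U74Cv2 probe set (-0.44, adjusted p = 0.32 in limma). The summed intensity of the 17 cycling cell markers with a probe set was 47087 and 55121 in AND-TCR–transgenic and 66830 and 66736 in C57BL/6 thymocytes. That of 4 B cell markers was 1782 and 1396 in AND-TCR–transgenic and 3327 and 2920 in C57BL/6 thymocytes, and that of 2 red blood cell markers 6555 and 4153 in AND-TCR–transgenic and 9531 and 11230 in C57BL/6 thymocytes. Of these 2, 1 was under the limit on all arrays and read below 0, so the sum is in effect that of Hba-a1 alone. The sum of 5 thymic epithelial markers was 2972 and 5745 in AND-TCR–transgenic and 2356 and 2771 in C57BL/6 thymocytes, without overlap. Epcam, the 1 of these 5 that could be tested, overlapped, with 1741 and 3862 in AND-TCR–transgenic and 2611 and 2498 in C57BL/6 thymocytes (log2 fold change 0.02), and 2 of the 5 were under the limit on all arrays. The sum of 5 myeloid markers overlapped, with 2228 and 1947 in AND-TCR–transgenic and 800 and 2356 in C57BL/6 thymocytes, and 2 of these 5 were under the limit on all arrays. None of these markers of other cells passed the test in limma, and 1 B cell and 1 red blood cell marker, both lower, had an unadjusted p under 0.05. The part of these shifts in the difference of Gtf2h4 was not tested. In these bulk samples fewer cells of a type and less RNA per cell cannot be told apart.

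The probe sets whose pattern over the 4 U74Av2 arrays was most like that of Gtf2h4 were found by the distance between mean-centered log2 values, among 4644 above the limit on all 4 arrays. The nearest was Endou, an endoribonuclease, at a distance of 0.31, with 2686 and 2947 in AND-TCR–transgenic and 11273 and 12945 in C57BL/6 thymocytes. Next came the surface protein Ly6d at 0.41, the cytokine signaling inhibitor Socs1 at 0.43, the myosin phosphatase partner Mprip at 0.44 and an immunoglobulin light chain segment, Igkv6-23, at 0.46. The probe set of Igkv6-23 is of a type that can read related genes. Distances over 4 arrays describe likeness and carry no test.

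Gtf2h4 lies on chromosome 17, bases 35667728 to 35673750 of GRCm38.p6, within the region of the major histocompatibility complex. The nearest 5 genes on each side with a tested probe set, 10 genes with 13 probe sets, had log2 fold changes from -0.64 to 0.84, and none passed the test in limma (lowest adjusted p = 0.119). Vars2, a mitochondrial valyl-tRNA synthetase and the nearest neighbor, had log2 fold changes of -0.64 (SE 0.24, adjusted p = 0.323 in limma) and -0.29 (SE 0.28, adjusted p = 0.711) at its 2 probe sets. The class I gene H2-Q5 had 0.84 at a probe set of a type that can read related genes. On the other side, Flot1, Tubb5, Mdc1, Nrm and Ppp1r18 had values from -0.21 to 0.59.

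**Figure D4:**
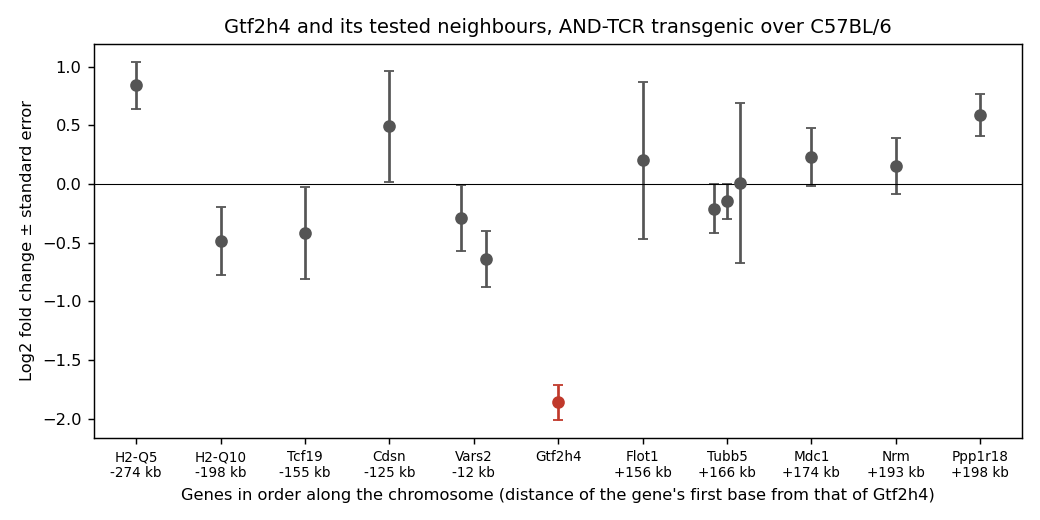
Log2 ratio of AND-TCR–transgenic to C57BL/6 thymocytes with its standard error (y axis, n = 2 hybridizations per group) for each tested probe set of Gtf2h4 and of the 5 tested genes on either side (x axis, in chromosomal order). Gtf2h4 at -1.86 lies below all 13 neighboring probe sets, which run from -0.64 to 0.84.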

How the data were processed

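The authors labeled total thymocyte RNA with biotin and used Microarray Suite 4.0 to read the 3 types of U74 array. What they deposited is linear intensity. From 20.1% to 37.8% of an array's values were negative, as after subtraction of mismatch signal. Trimmed means of 1000.4 to 1000.9 show that scaling had been done before deposit; its target is not given in the sources used here. Scaling cannot show a change common to all genes. The deposited wash and scan settings, other than expression values, were read for module, lot and run day.

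Each array was multiplied by 1 factor (0.99995 to 1.00004) to the common mean, within its array type, after dropping the lowest and highest 2% of values. The noise SD was the median absolute negative value multiplied by 1.4826, and the detection limit 2 noise SDs. Affymetrix control probe sets (66 per array type) were left out. Differences were fitted on log2 values with lmFit and eBayes of limma 3.58.1 in R 4.3.3, with a trend in the prior variance and 1 fit per array type (5573, 4583 and 2688 probe sets), and p-values were adjusted over all 12844 by the Benjamini-Hochberg method; a called probe set has an adjusted p under 0.05. The number of arrays limits the precision, and 2 against 2 arrays allow no exact test under the threshold. Where a gene had several tested probe sets, that with the highest mean log2 intensity stood for it in the lists, a choice that ranks probe sets by intensity and sometimes across array types; no result compares levels between genes.

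Platform annotation gave 1 symbol to 29197 probe sets, several to 724 and none to 6978. Gene identifiers of RefSeq GRCm38.p6 matched 29110 of these and changed no symbol. All member probe sets are reported, from other lists the genes that passed or the most intense ones. Xpc, Rpa3, Rfc1, Rfc4, Rfc5, Pold1, Cd3d, Cd3e, Cd3g, Cd4, Ptcra, Cd5 and Epcam were named after their values were seen. The members and lists were chosen with earlier results of these data known. Run days shared by hybridizations of the same number gave the pairing for the replicate block; deviations of same-numbered arrays correlated at 0.0354, -0.119 and -0.232 on U74Av2, U74Bv2 and U74Cv2. Figures were drawn with matplotlib 3.10.9.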

Additional observations from a re-analysis of the deposited data

How the results depend on the processing

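In limma, 135 probe sets were called, of which 1 was a member, Gtf2h4. The count over all probe sets was 256 when only those above the limit on all 4 arrays were tested, 306 with the replicate block and 10 without a trend in the prior variance. It was 455 with crossed pairing, which was added after the values were seen. Without any 1 hybridization it was 0, and 1290 to 1968 had an unadjusted p under 0.05; the array left alone in its group was then assumed to vary like the other group. The member count was 0 without the trend and 0 without any 1 hybridization, and 1 under every other setting that gave a value. No other repair gene was called under the other settings; crossed pairing was not run for these genes. Gtf2h4 had a log2 fold change between -1.92 and -1.79 in the settings run for it. The replicate block changed no call among the members. Of 101 member values under alternatives, 88 kept direction and side of the threshold. The 8 that changed direction all came from leaving out 1 hybridization, with ranges of -0.18 to 0.00 for Ccnh, -0.01 to 0.78 for Ercc2 at 99397_at, -0.14 to 0.55 for Ercc3 at 102346_at, -0.23 to 0.51 for Gtf2h1 and -0.24 to 0.44 for Mnat1 at 161557_at, none of them called. The causes were not tested. Testing every probe set without a filter gave no usable value, since most residual variances were then exactly 0. Signal near the detection limit restricts what can be said of Cdk7, Mnat1, Ercc5 and Gtf2h1, and Gtf2h2 had no probe set of its symbol alone. The call of Gtf2h4 rests on its 1 probe set.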
